A study of Mus musculus with 6 samples.

Results

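The variable (V) segments of the T cell receptor loci were described in RNA from spleen cells of 6 mice. Members were the genes of the deposited count table that GENCODE release M21 classes as T cell receptor V genes, and they numbered 99 of 24906 genes in the table. The release annotates 144 such genes. Of the 99 members, 67 were Trav segments of the alpha locus (TRA, of 108 annotated), 22 were Trbv segments of the beta locus (TRB, of 22), 5 were gamma segments (TRG, of 7) and 4 were delta segments (TRD, of 5). The remaining member, B230359F08Rik, has no segment name and held 2 reads in all. The mice were C57BL/6J animals of 12 to 16 months, 3 per genotype. D3TA mice carried a knock-in made with CRISPR/Cas9 in Ccnd3, the gene for cyclin D3, in which alanine replaces threonine 283. The line was bred as heterozygotes, and at this age it shows severe myeloproliferative neoplasm, an overgrowth of blood-forming cells. The WT group held age-matched wild-type mice, and the labels name no treatment. Whole spleen cells were taken without sorting, so each library mixes T cells with all other spleen cells. The comparison addresses whether receptor segment RNA, and its distribution over segments, differed between the genotypes.

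Each developing T cell builds its receptor genes by joining a V segment to a joining (J) segment, with a diversity (D) segment between them at the beta and delta loci, and splices the result to a constant (C) region. Alpha and beta chains pair on conventional T cells, and gamma and delta chains pair on a smaller lineage. A V segment therefore marks which receptors the T cells of a spleen carry, and expansion of 1 clone raises the segments that this clone uses. In mice the alpha locus holds stretches that were copied during evolution, whose segments carry the letters d and n in their names, so that many Trav segments are nearly the same in sequence.

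The ends of the V segments show how well reads can tell them apart. The last 60 coding bases are given for 8 Trbv segments on chromosome 6, chosen because they held the largest shares of a library, belong to the Trbv13 family or are described beside the tests. Sequences are the plus strand in GENCODE M21 transcripts on GRCm38, 5′ to 3′, and capitals mark the last in-frame cysteine codon, which lies just before the third hypervariable loop of the receptor.
Trbv3 (chr6:41048769-41048828): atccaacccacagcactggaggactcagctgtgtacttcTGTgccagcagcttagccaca
Trbv13-1 (chr6:41116409-41116468): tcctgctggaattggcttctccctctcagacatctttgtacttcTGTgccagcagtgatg
Trbv13-2 (chr6:41121773-41121832): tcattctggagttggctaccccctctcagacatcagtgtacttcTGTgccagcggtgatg
Trbv13-3 (chr6:41130526-41130585): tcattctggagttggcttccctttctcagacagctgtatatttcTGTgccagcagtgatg
Trbv14 (chr6:41135557-41135616): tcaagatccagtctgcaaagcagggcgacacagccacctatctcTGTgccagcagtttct
Trbv15 (chr6:41141599-41141658): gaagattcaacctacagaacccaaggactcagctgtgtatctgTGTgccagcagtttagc
Trbv16 (chr6:41152171-41152230): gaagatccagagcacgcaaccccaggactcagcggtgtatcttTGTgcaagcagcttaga
Trbv19 (chr6:41178989-41179048): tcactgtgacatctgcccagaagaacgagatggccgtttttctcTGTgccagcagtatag
The 9 bases TGTGCCAGC occurred in this window in 13 of the 22 annotated Trbv segments, against 13 of all 144 V segments (9.03%), and on the other strand in 0 of them. No Trav, gamma or delta segment held them there. Within the Trbv13 family the last 60 bases differed at 8 to 10 positions, an identity of 83.3% to 86.7%.

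The copied Trav16 segments on chromosome 14 are shown because 2 of them led the Trav reads of 1 library. Their last 75 coding bases are given in the same way, with capitals at the positions that differ among the 3 copies.
Trav16 (chr14:53743631-53743705): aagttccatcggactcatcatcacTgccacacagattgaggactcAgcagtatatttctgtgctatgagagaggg
Trav16n (chr14:53351547-53351621): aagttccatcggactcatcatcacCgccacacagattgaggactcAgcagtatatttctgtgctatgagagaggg
Trav16d-dv11 (chr14:53047747-53047821): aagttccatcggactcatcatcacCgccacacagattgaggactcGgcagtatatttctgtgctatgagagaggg
Trav16 and Trav16n differed at 1 of these 75 positions, and Trav16 and Trav16d-dv11 at 2. Over whole transcripts, 99 of the 108 annotated Trav segments shared at least 1 stretch of 50 bases with another V segment, against 2 of 22 Trbv segments. Of the Trav segments, 35 had no 50-base stretch of their own, and 6 of these were in the table. Of the other 73, 61 were in the table. Values for single Trav segments are therefore uncertain, since the way reads shared by copies were counted is not given in the sources used here. The Trbv values carry little of this limit, since Trbv13-2 and Trbv13-3 share 1 such stretch and no other pair shares any.

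Libraries held 14944622 to 19456838 reads assigned to genes, so that 3 reads equal 2.59 to 3.36 on the normalized scale. WT-2 stood apart from the other 5 libraries. It listed 8449 genes at 0, against 3193 to 5170, and 9.56% of its detected genes had 1 to 10 reads, against 22.5% to 28.0%. Hemoglobin took 6.39% to 6.75% of reads in D3TA-1, D3TA-2 and WT-3 and 1.40% to 1.91% in the others, and Y-linked genes had 2800 reads in D3TA-3 and 2912 in WT-1 against 43 to 236 in the other 4. The defining markers of T cells were present in every library. All 11 were tested and lay below 0, and their summed normalized count was 5991, 17039 and 20433 in the D3TA libraries and 22487, 25886 and 20161 in the WT libraries. The 8 B cell markers were also all below 0 and summed to 10795 to 35406 against 56801 to 68079, and the 8 neutrophil markers were all above 0 and summed to 77466 to 416693 against 11292 to 26973. In RNA of a mixed tissue, fewer T cells, less RNA per T cell and a larger part of RNA from other cells cannot be told apart.

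V segment RNA was lowest in D3TA-1 at TRA and TRB, and the genotypes overlapped at all 4 loci. The summed normalized count of the 22 Trbv segments was 168, 726 and 1068 for D3TA mice 1 to 3. For WT mice 1 to 3 it was 1091, 858 and 896. D3TA-3 lay within the WT range, D3TA-2 a little below it and D3TA-1 far below it. The D3TA mean was 654 ± 454 (SD, n = 3), against 948 ± 125 (SD, n = 3) for WT, a log2 ratio of −0.54. This difference was smaller than the spread between the D3TA libraries. Without D3TA-1 the log2 ratio was −0.08.

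The 67 Trav segments summed to 56.8, 180 and 382 in D3TA-1, D3TA-2 and D3TA-3 and to 373, 156 and 254 in WT-1, WT-2 and WT-3. The highest and the lowest sum both came from D3TA mice. The group means were 206 ± 164 (SD, n = 3) and 261 ± 109 (SD, n = 3), and the log2 ratio of −0.34 became 0.11 without D3TA-1 and 0.01 without WT-1. Restricted to the 3 libraries with high hemoglobin (D3TA-1 and D3TA-2 against WT-3), the log2 ratio was −1.10 at TRA and −1.0 at TRB. Among the 3 with low hemoglobin (D3TA-3 against WT-1 and WT-2) it was 0.53 and 0.13. Between the libraries with many Y-linked reads (D3TA-3 against WT-1) the ratios were 0.04 and −0.03, and among those with few (D3TA-1 and D3TA-2 against WT-2 and WT-3) they were −0.79 and −0.97. D3TA-1, the lowest library, is in both the high hemoglobin subset and the subset with few Y-linked reads. The parts of hemoglobin and of Y-linked reads in these sums were not tested and cannot be told apart from that library's low sums.

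**Figure D1:**
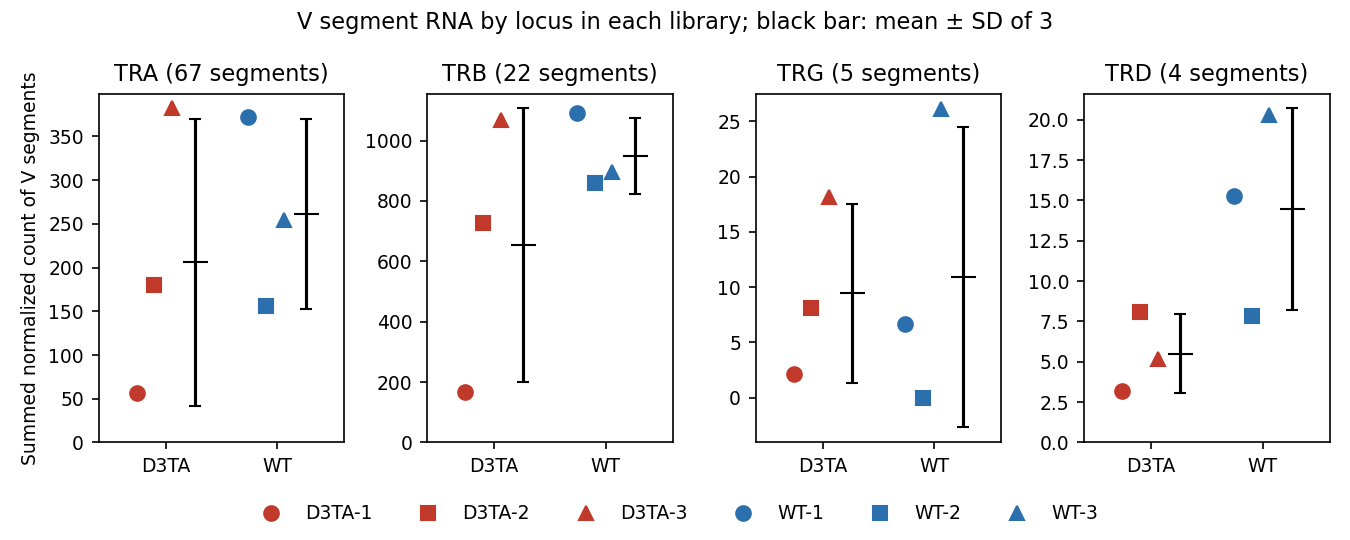
Summed normalized count of the V segments of each locus (vertical axis, linear) in the 3 D3TA and 3 WT libraries, 1 point per library, with the mean and SD of each genotype in black. D3TA-1 (circles) has the lowest TRA and TRB sums, and D3TA and WT libraries overlap at every locus.

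At the beta locus the same few segments led in most libraries. All 22 annotated Trbv segments were in the table, and 16 had reads in all 6 libraries. Trbv3, Trbv13-2, Trbv16, Trbv19 and Trbv1 held the largest mean shares of Trbv reads. Counted per base of exon, which removes the effect of segment length, the order was Trbv13-2 with 14.6% of Trbv reads per kilobase, Trbv16 with 12.2% and Trbv3 with 11.1%. These were followed by Trbv13-3 and Trbv13-1, with 5.67% and 5.66%. The first 3 exchanged places between libraries, so their order is not larger than the spread. The lowest was Trbv21, with 3 reads, all in D3TA-2.

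Single mice departed from this order in both genotypes. Trbv3 made up 24.6% of Trbv reads in D3TA-2 (95% exact Clopper-Pearson interval 21.5% to 27.9%). In the other 5 libraries its share was 8.41% to 11.6%. Trbv13-2 made up 22.3% in D3TA-1 (16.0% to 29.6%), against 9.06% to 11.7% elsewhere. In WT-2 the leading segment was Trbv16, with 21.3% (18.4% to 24.3%), against 7.01% to 12.7% elsewhere. Trbv15, named after its values were seen, reached 10.9% in D3TA-3 (9.24% to 12.8%), against 1.27% to 4.43% elsewhere. Also named after their values were seen, Trbv31 reached 6.39% in WT-1, against at most 3.52% elsewhere, and Trbv2 reached 11.003% in WT-3, against at most 6.95%. Each of the 6 mice thus had a named segment that was higher than in the other 5. With 22 segments in 6 libraries this is likely whatever the usage, and Trbv15, Trbv31 and Trbv2 were chosen after their values were seen. It therefore does not show usage particular to a mouse, and Trbv31 and Trbv2 were given no interval. The intervals cover counting error only, because no molecular identifiers separate copies made by PCR.

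No Trbv segment separated the genotypes by its share. The share of the D3TA libraries overlapped that of the WT libraries for all 22 segments. Trbv19 took 14.6%, 6.82% and 5.26% of Trbv reads in D3TA-1, D3TA-2 and D3TA-3 and 4.20%, 6.91% and 5.83% in WT-1, WT-2 and WT-3. For Trbv1 the shares were 7.01%, 6.68% and 4.94% against 6.30%, 1.04% and 7.77%, with the low value in WT-2. The 3 Trbv13 segments together made up 33.8%, 18.4% and 21.4% against 24.2%, 18.8% and 19.1%.

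**Figure D2:**
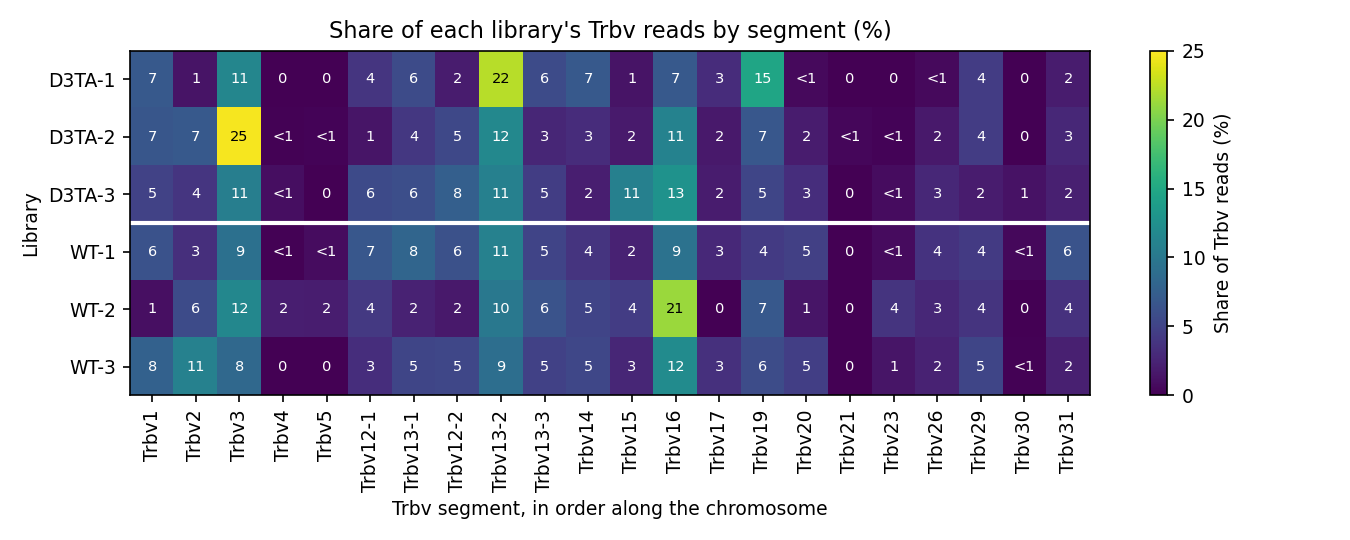
Share of each library's Trbv reads (percent, colour and printed number) held by each of the 22 Trbv segments in chromosome order, with D3TA libraries above the white line and WT libraries under it. Bright cells mark Trbv3 in D3TA-2 (24.6%), Trbv13-2 in D3TA-1 (22.3%) and Trbv16 in WT-2 (21.3%).

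The spread of reads over the Trbv segments was summarised in a pair of measures. The effective number is the number of equally used segments that would give the same Shannon entropy, and it was computed after every library was thinned to 157 Trbv reads. It was 11.6, 11.9 and 14.7 in D3TA-1, D3TA-2 and D3TA-3 and 15.9, 13.4 and 14.96 in WT-1, WT-2 and WT-3. The means were 12.7 ± 1.68 (SD, n = 3) and 14.8 ± 1.25 (SD, n = 3). The values of D3TA-3 and WT-2 overlapped, so the groups were not separated. The usage distance is the share of reads that would have to move to other segments to turn 1 library's usage into another's. Computed on all reads without thinning, this distance was 26.0% to 33.6% between D3TA mice, 17.4% to 30.1% between WT mice and 17.7% to 35.3% between genotypes. D3TA-1, with 157 Trbv reads against 719 to 1236 elsewhere, gave the largest distance between D3TA mice and between genotypes. The part of its low depth in these was not tested. The distances between genotypes thus covered nearly the same range as those within a genotype.

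Each segment's own level was tested with limma on log2(normalized count + 1), which gives standard errors (SE) pooled across genes and p-values adjusted by Benjamini-Hochberg over 15564 genes. A normalized count of at least 10 in 3 libraries was required, which 17 Trbv and 5 Trav segments met, and the other 77 members were not tested. No member passed an adjusted p of 0.05 (0 of 22), as for all genes (0.0%, 0 of 15564). At an unadjusted p under 0.05 limma gave 0 of the 22 members and 1542 genes. With DESeq2 on the recovered reads, 0 of 99 members and 472 of 24866 genes passed, a share of genes too small to set the members apart. edgeR called 0 of 22 members and 0 of 15564 genes, so its count of 0 for any gene list says nothing about that list. Of the 22, 19 lay below 0 with a median log2 difference of −0.91, against 45.5% of all genes and a median of 0.06. These were 16 of 17 Trbv (median −1.20) and 3 of 5 Trav segments (median −0.46). D3TA-1 was the lowest library for 15 of the 17 Trbv segments, and without it 12 of the 22 members lay below 0, with a median of −0.14.

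The 4 Trbv segments with the smallest p were lower on average in D3TA by about the same amount. Trbv14 stood at normalized counts of 11.8, 23.2 and 22.5 in the 3 D3TA libraries against 41.1, 43.6 and 47.4 in the 3 WT libraries, each in the order 1 to 3. The WT values lay close together and above all D3TA values. Its log2 difference was −1.21 (SE 0.62, limma adjusted p = 0.567). Trbv29 stood at 7.50, 32.3 and 20.7 against 45.9, 32.5 and 46.4, with a log2 difference of −1.20 (SE 0.72). D3TA-2 and WT-2 were nearly level for this segment. Trbv14 and Trbv29 were the 2 of 22 tested members with every D3TA library below every WT library, as were 6.84% of all genes. None of the 22 lay above in the same sense, against 8.18% of all genes. As shares of Trbv reads both segments overlapped between the genotypes, with Trbv14 at 2.10% to 7.01% in D3TA and 3.77% to 5.29% in WT.

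Trbv13-3 stood at 9.64, 19.2 and 48.4 against 55.4, 54.8 and 43.5, with a log2 difference of −1.24 (SE 0.69). D3TA-3 was within the WT range. Trbv16 stood at 11.8, 80.8 and 136 against 103, 182 and 108, with a log2 difference of −1.29 (SE 0.78), and here D3TA-3 was above 2 of the WT libraries. For the other 4 of the 5 commonest segments the log2 differences were −0.30 (SE 0.73) for Trbv3, −0.39 (SE 0.52) for Trbv13-2, −0.34 (SE 0.55) for Trbv19 and −0.18 (SE 0.91) for Trbv1. Without D3TA-1 all 4 of these were above 0, between 0.02 and 0.64.

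Above 0 lay 3 members. Trav4-3 stood at 0, 29.3 and 13.0 normalized counts for D3TA mice 1 to 3 against 11.5, 0 and 0 for WT mice 1 to 3, so its log2 difference of 1.69 (SE 1.77) rested on libraries without reads. Trav9-2 stood at 5.36, 11.1 and 35.4 against 12.4, 4.48 and 3.87, with a log2 difference of 0.99 (SE 1.06). D3TA-3 was the high library. Trbv17 stood at 5.36, 12.1 and 19.9 against 31.5, 0 and 30.9. Its log2 difference of 0.25 (SE 1.39) had the opposite sign to its group means of 12.5 and 20.8, because WT-2 had no read, and without WT-2 it was −1.42.

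**Figure D3:**
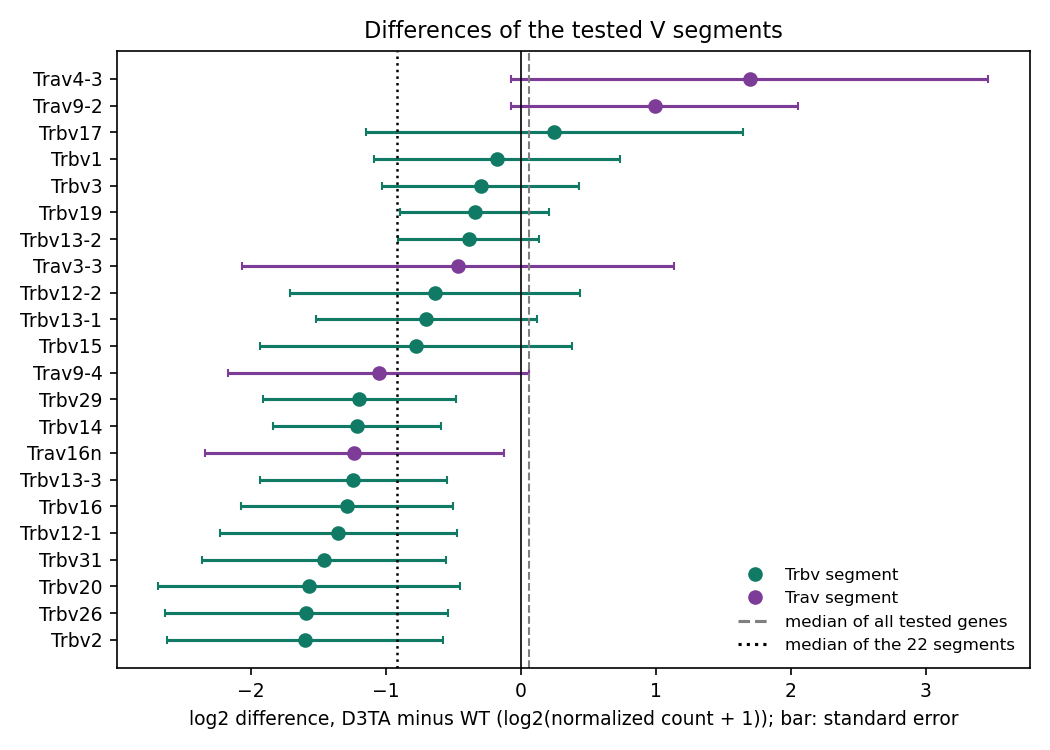
log2 difference (D3TA minus WT, on log2 of normalized count + 1) of the 22 tested V segments, with the standard error as a bar, Trbv in green and Trav in purple. Of the points, 19 lie left of 0; the dotted line marks the members' median of −0.91 and the dashed line the median of all tested genes, 0.06.

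At the alpha locus reads were thinly spread, and 1 WT library differed from the rest. The Trav reads numbered 53, 178 and 442 in D3TA-1, D3TA-2 and D3TA-3 and 390, 139 and 263 in WT-1, WT-2 and WT-3. They came from 22, 35 and 52 segments and from 53, 7 and 38 segments. WT-2 thus had all of its 139 Trav reads in 7 segments, while D3TA-1 had 53 reads in 22. Only 5 of the 67 segments had reads in all 6 libraries, and 11 had reads in 1.

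In WT-2, Trav16 held 25.9% of Trav reads (95% exact interval 18.8% to 34.0%), Trav16n 21.6% (15.1% to 29.4%) and Trav9-4 18.7%, which is 66.2% in all. In the other libraries Trav16 held 0% to 2.71% and Trav16n 1.69% to 5.66%. Trav16 and Trav16n share 48.2% and 50.5% of their 50-base stretches with other segments, so part of these reads may come from another copy. Trav14-3 held 12.9% in WT-2 and 1.36% to 4.49% elsewhere. The same library had few genes with 1 to 10 reads across the whole table, and the part of this in its 7 segments was not tested. Its Trac, the alpha constant region, had a normalized count of 2505, close to the 2531 of WT-1.

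Thinned to 53 reads, the effective number of Trav segments was 18.3, 18.7 and 23.7 in the D3TA libraries and 24.8, 5.71 and 20.4 in WT-1, WT-2 and WT-3. Outside WT-2 the range was 18.3 to 24.8. The group means of 20.2 ± 3.03 (SD, n = 3) and 17.0 ± 9.98 (SD, n = 3) changed order without WT-2, from a D3TA minus WT difference of 3.28 to −2.35.

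**Figure D4:**
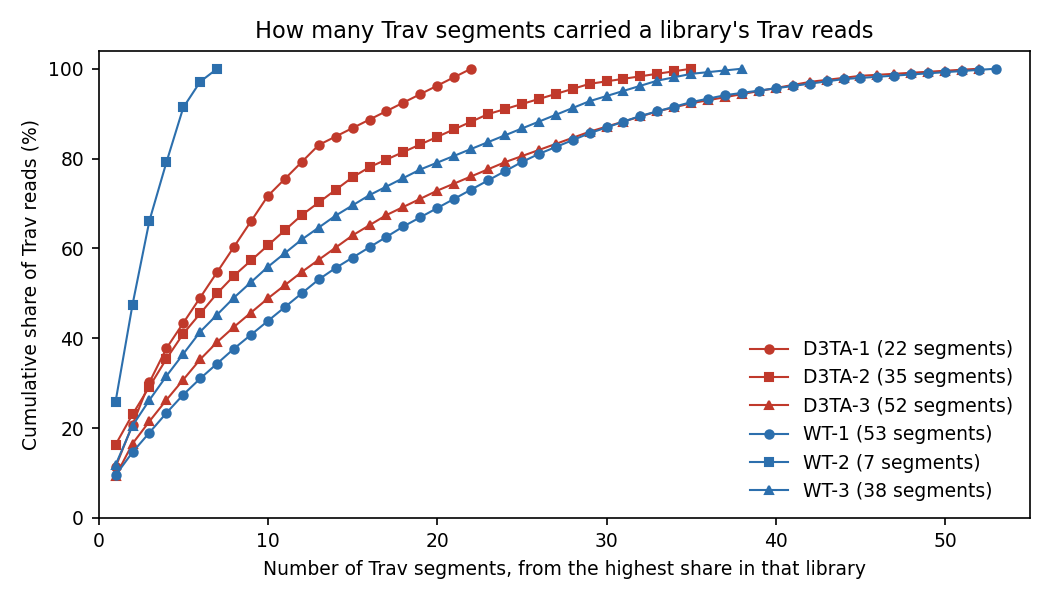
Cumulative share of a library's Trav reads (percent) against the number of Trav segments, taken from the most used downward, with D3TA libraries in red and WT libraries in blue. WT-2 reaches 100% with 7 segments, and the other 5 libraries need 22 to 53.

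Other Trav segments were high in single mice. Trav14n-1 held 11.8% of Trav reads in WT-3 (8.15% to 16.3%), 2.05% in WT-1 and none elsewhere. With 3 reads taken as the limit, a count of 0 allows a share of up to 0.679% in D3TA-3 and 5.66% in D3TA-1. All 414 of its 50-base stretches also occur in Trav14d-1, so these reads may belong to either copy. Trav4-3 held 16.3% in D3TA-2 (11.2% to 22.6%) and at most 3.39% in another library. Trav9-4, the segment with the largest mean share, had normalized counts of 2.14, 11.1 and 14.7 in the D3TA libraries and 35.3, 29.1 and 3.87 in WT-1, WT-2 and WT-3. Its log2 difference was −1.05 (SE 1.12), and for Trav16n it was −1.23 (SE 1.11).

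Listed shares of 3 of the 67 Trav segments (4.48%) were higher in every D3TA library than in every WT library, and 0 were lower in this way. By level, 8.18% of all tested genes lay above without overlap. The segments were Trav9-2 and, named after their values were seen, Trav6d-4 and Trav19. Trav9-2 held 9.43%, 6.18% and 9.28% of Trav reads in D3TA-1, D3TA-2 and D3TA-3 and 3.33%, 2.88% and 1.52% in WT-1, WT-2 and WT-3. The intervals of D3TA-2 (3.12% to 10.8%) and WT-1 (1.79% to 5.63%) overlapped. That of D3TA-3 (6.74% to 12.4%) overlapped WT-2 (0.79% to 7.20%) but neither WT-1 nor WT-3 (0.416% to 3.85%). Trav19 had 2, 8 and 2 reads in the D3TA libraries and none in the WT libraries, and Trav6d-4 had 3, 3 and 5 against 2, 0 and 0. A count of 0 allows a Trav share of up to 2.16% in WT-2, above the 0.452% of Trav19 and the 1.13% of Trav6d-4 in D3TA-3, so these 2 segments are not shown to be separated.

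By position in the locus, segments without a letter held most Trav reads. Their share was 77.4%, 78.7% and 79.9% in D3TA-1, D3TA-2 and D3TA-3 and 72.8%, 72.7% and 66.5% in WT-1, WT-2 and WT-3. All D3TA values were above all WT values, with means of 78.6% ± 1.25 (SD, n = 3) and 70.7% ± 3.58 (SD, n = 3). Between the genotypes, the intervals of D3TA-3 (75.8% to 83.5%) and WT-3 (60.5% to 72.2%) did not overlap. Every other pair did, for example D3TA-3 and WT-1 (68.1% to 77.2%). Copies with the letter d held 7.55%, 11.2% and 7.92% against 12.3%, 0% and 15.2%, and copies with the letter n held 15.1%, 10.1% and 12.2% against 14.9%, 27.3% and 18.3%. The split among copies depends on how reads that fit more than 1 copy were counted.

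A pair of Trav segments marks T cells with semi-invariant receptors. Trav11, used by invariant natural killer T cells, had 5 reads, all in D3TA-3. Trav1, used by mucosal-associated invariant T cells, had 1 read in D3TA-2 and 7 in WT-1. Both were named after their values were seen, and neither had reads in the other libraries. Trav11 shares 293 of its 294 stretches of 50 bases with Trav11d, which is absent from the table. Its reads may therefore belong to either copy, and its zeros may depend on how shared reads were counted as well as on depth.

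Gamma and delta segments were near the limit of detection. The 5 gamma segments together had 2, 8 and 21 reads in D3TA-1, D3TA-2 and D3TA-3 and 7, 0 and 27 in WT-1, WT-2 and WT-3. The genotypes overlapped, and the highest and lowest values were both from WT mice. Trgv2 provided most of them, with 2, 4 and 15 reads against 5, 0 and 13. Tcrg-V1 had 0, 4 and 2 against 2, 0 and 6. The 4 delta segments had 3, 8 and 6 reads against 16, 7 and 21. The log2 ratio of their normalized sums was −1.40, with means of 5.49 ± 2.45 (SD, n = 3) and 14.5 ± 6.27 (SD, n = 3), and D3TA-2 and WT-2 overlapped. This sum leaves out the 8 Trav segments that also carry a delta name (dv), which were counted at TRA. They had 1, 15 and 23 reads against 29, 0 and 39. Trdv5 was seen in 3 libraries, with 3 reads in D3TA-2, 12 in WT-1 and 8 in WT-3, and Trdv2-2 in 4, with 3 reads in D3TA-1, 5 in D3TA-3, 7 in WT-2 and 6 in WT-3. These numbers are too low to show a difference between genotypes.

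Constant regions, which every receptor transcript carries whatever its V segment, give a second measure of receptor RNA. All 7 tested constant regions had a log2 difference below 0 (median −1.04). For Tcrg-C1, a gamma constant region named after its values were seen, it was −0.05, opposite to its group means of 75.3 in D3TA and 46.5 in WT, and with library-size scaling and with edgeR 6 of 7 lay below 0. Without D3TA-1 the median was −0.64. With limma 0 were called and 2 had an unadjusted p under 0.05, and edgeR and DESeq2 also called 0. The sum over the 8 constant regions in the table was 2206, 6619 and 6681 in D3TA-1, D3TA-2 and D3TA-3 and 8167, 9685 and 8416 in WT-1, WT-2 and WT-3, so that all D3TA sums lay below all WT sums. Trbc2, of the beta locus, stood at 899, 2971 and 3048 normalized counts against 3524, 4507 and 4467, with a log2 difference of −1.04 (SE 0.45, limma adjusted p = 0.481). Trbc1 stood at 567, 2228 and 1423 against 1818, 2436 and 2609, and its log2 difference was −0.89 (SE 0.45). Trac stood at 509, 1319 and 1993 against 2531, 2505 and 1065, with a log2 difference of −0.78 (SE 0.51). For Trac WT-3 was below 2 of the D3TA libraries. Without D3TA-1 the log2 differences were −0.46 for Trbc2, −0.34 for Trbc1 and −0.22 for Trac. Tcrg-C2, a gamma constant region, stood at 26.8, 42.4 and 62.2 against 77.4, 120 and 99.5, with a log2 difference of −1.21 (SE 0.51).

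Read for read, V segments followed their constant regions to a varying degree. Per 100 reads of Trbc1 and Trbc2 there were 11.5, 14.0 and 23.9 Trbv reads in D3TA-1, D3TA-2 and D3TA-3 and 20.4, 12.4 and 12.7 in WT-1, WT-2 and WT-3. D3TA-3 and WT-1 were high and the others alike. The means were 16.4 ± 6.57 (SD, n = 3) and 15.1 ± 4.57 (SD, n = 3), a difference of 1.30 reads per 100 that was smaller than either SD. Per 100 Trac reads there were 11.2, 13.6 and 19.2 Trav reads against 14.7, 6.21 and 23.9, with the low value in WT-2. For the gamma locus the ratio ran from 0 in WT-2 to 19.1 in D3TA-3. Tcrg-C1 had 172 reads in D3TA-1 and 18 to 65 elsewhere, in a library with 2 gamma V reads.

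**Figure D5:**
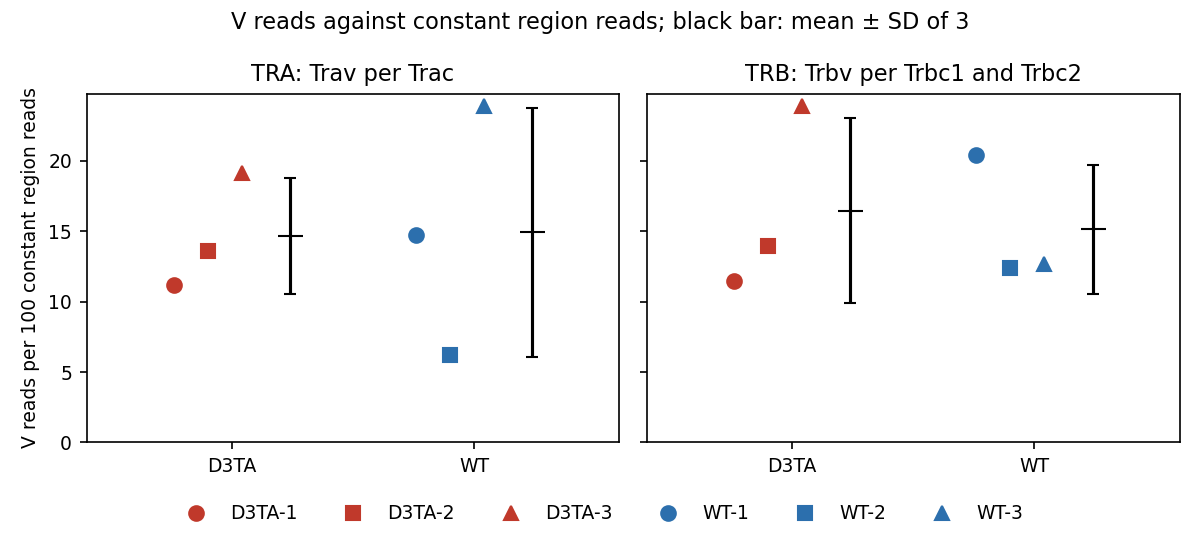
V segment reads per 100 constant region reads (vertical axis, from 0) at TRA (left) and TRB (right) in each library, with the mean and SD of each genotype in black. At TRB D3TA-3 (23.9) and WT-1 (20.4) are high, at TRA WT-2 (6.21) is low, and the genotypes overlap at both.

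Genes that accompany the receptor were described as lists. All 18 CD3 and coreceptor genes, which carry the receptor's signal or help it bind, lay below 0 (median log2 difference −0.80). Without D3TA-1, 15 of 18 lay below 0 and the median was −0.27. With limma 0 were called and 5 had an unadjusted p under 0.05, edgeR called 0, and DESeq2 called 1, Trat1. Their summed normalized count was 7435, 18917 and 23666 in D3TA-1, D3TA-2 and D3TA-3 and 25528, 27352 and 23493 in WT-1, WT-2 and WT-3, so that D3TA-3 and WT-3 overlapped. Trat1, an adaptor of the receptor complex, stood at 30.0, 80.8 and 40.6 against 169, 142 and 223, with a log2 difference of −1.90 (SE 0.49, limma adjusted p = 0.247). Skap1, an adaptor downstream of the receptor, had a log2 difference of −1.13 (SE 0.42, limma adjusted p = 0.423), or −0.60 without D3TA-1. Of 13 tested genes tied to invariant and gamma-delta T cells, 9 lay below 0 (median −0.21), but without D3TA-1 5 of 13 did and the median was 0.08. With limma 0 were called and 2 had an unadjusted p under 0.05, and edgeR and DESeq2 called 0. The smallest p-values belonged to Blk and Cd1d1, which B cells also express, with log2 differences of −1.27 (SE 0.44) and −1.22 (SE 0.42), or −0.70 and −0.83 without D3TA-1. The B cell marker sum moved the same way, and its part was not tested.

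Joining segments and the genes of V(D)J recombination completed the picture of the loci. The table held 32 of 70 annotated joining segments, and the 3 that were tested, all Trbj, lay below 0 (2 of 3 without D3TA-1) and had no p under 0.05. They do not stand for the rest. With genes of 1 read in 2 libraries also tested, 11 of 21 joining segments lay below 0, with a median log2 difference of −0.08. Traj reads numbered 7, 10 and 30 in D3TA-1, D3TA-2 and D3TA-3 and 16, 54 and 0 in WT-1, WT-2 and WT-3. The 54 reads of WT-2 came from 5 segments. Of 9 tested recombination genes 5 lay below 0. With limma 0 were called and 1 had an unadjusted p under 0.05, and edgeR called 0. DESeq2, which tested all 13 genes of the list, called Dntt and also Rag1, which was too low for the limma test. The following 3 were named after their values were seen. Rag1, a subunit of the recombinase, had 82 reads in WT-2 and 0 to 4 elsewhere, and its partner Rag2 had 22 reads in WT-2 and 0 elsewhere. Dntt, the terminal transferase that adds bases at the joints, stood at 9.64, 12.1 and 19.9 normalized counts in the D3TA libraries and at 39.2, 131 and 87.0 in WT-1, WT-2 and WT-3. Its log2 difference was −2.44 (SE 0.67, limma adjusted p = 0.285). B cell precursors use these recombination genes too, and the B cell markers were lower in D3TA, so the lineage of these reads cannot be told apart here.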

How the data were processed

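RNA was measured in 3 D3TA and 3 WT spleen libraries, grouped by their titles. Messenger RNA was selected with poly-T beads and copied from random hexamers, per the labels' protocols, which describe no strand-marking step. Among the tools in the submitters' processing notes are HISAT2, Trim Galore, FastQC, CASAVA and DESeq2, with mm10 as the build and no versions. How reads were counted, and on which annotation, is not given in the sources used here. The values deposited by the authors, titled raw counts, are a signal: counts divided by a size factor per library, since 100% of 149436 values were whole multiples of 1 step per library (tolerance 0.001). The design allowed for either unit, so limma was the main test.

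Symbols, biotypes, coordinates, exon lengths and transcripts came from GENCODE M21 (24860 of 24906 identifiers matched). Normalized counts were fitted as log2(value + 1) with limma 3.58.1 (trend, robust), genotype as the only factor, 2-sided, for genes with at least 10 in at least 3 libraries. P-values were adjusted by Benjamini-Hochberg at 0.05. The test was run on simulated counts in which only well expressed genes were changed, by large folds. That check does not cover segments with low counts or smaller differences. Sums, shares and effective numbers (200 seeded draws) were given no p-value. Share limits are 95% exact intervals, except that the limit for a count of 0 is 3 reads over the library's reads at that locus. P-values set the genotype difference against the spread between libraries of a genotype, pooled across genes. Same-numbered libraries did not deviate together (correlations −0.0572, −0.00456 and −0.132), so the replicate numbers do not pair them.

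Members and gene lists were chosen with earlier results of these data known. Named segments were the 5 with the largest mean share at TRA and TRB, gamma and delta segments with at least 10 reads, up to 4 tested members per direction with the smallest p, members whose share in 1 library was at least 3 times the next (at least 20 reads there), and the 2 genes with the smallest p of 3 lists, with Trac, Trbc1 and Trbc2. Alternatives were TMM, median-of-ratios and library-size scaling, scaling without receptor, immunoglobulin and hemoglobin genes, filters, pseudocounts, edgeR 4.0.16, DESeq2 1.42.0, limma-voom, libraries left out, and a replicate block. The hemoglobin and Y-linked subsets were added after the data were seen. R 4.3.3 and Python 3.11.15 were used.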

Additional observations from a re-analysis of the deposited data

How the results depend on the processing

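Counts of limma calls stayed at 0 for the members and the 5 gene lists. In the main fit 0 of 15564 genes were called, so there this says nothing of their stability. Without D3TA-3, limma called 306 of 15564 genes, a share too small to set the members apart. Its unadjusted p was then under 0.05 for 3 of 22 members, 4 of 7 constant regions and 12 of 18 CD3 and coreceptor genes. These counts were 0, 2 and 5 in the main fit and 0, 0 and 1 without D3TA-1. Without 1 library at a time the share of tested members below 0 ran from 54.5% (without D3TA-1) to 90.9%, and the members' median log2 difference from −1.43 (without D3TA-3) to −0.14 (without D3TA-1). With genes of 1 read in 2 libraries also tested, 55 of 84 members lay below 0, with a median of −0.25. The 5 members with at least 50 in 3 libraries had a median of −0.34. With DESeq2 the CD3 and coreceptor list had 1 call (Trat1, log2 difference −1.82, adjusted p = 0.0234) and the recombination list 2, where limma called 0. Rag1 did not enter the limma test, and for Trat1 and Dntt the cause was not tested. The list medians depended on D3TA-1: without it the CD3 and coreceptor median moved from −0.80 to −0.27 and that of the invariant and gamma-delta list from −0.21 to 0.08. No alternative called a V segment, and with the replicate block 0 of 22 were called, with 86.4% below 0. That block changed no other call. The log2 ratio of Trbv sums ran from −1.08 (without D3TA-3) to −0.08 (without D3TA-1), and that of Trav sums from −1.14 to 0.11. With segments that share 50 bases left out, which were 61 of the 67 Trav segments in the table, the Trav ratio was 0.29. It rests on the few segments left, in which WT-2 had no reads, so its sign says little about the locus. The gamma ratio ran from −1.10 to 1.5. The effective number of Trav segments had no value with shared segments left out, since WT-2 then had no reads.

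Of 21 named tested genes, 6 changed direction under some alternative. Trbv17 was at −0.19 with a pseudocount of 5, −0.75 with edgeR, −0.74 with DESeq2 and −0.96 without D3TA-1 and WT-2. Trbv3 was at 0.18 with edgeR, 0.18 with DESeq2 and 0.71 without D3TA-1 and WT-2. Leaving out those 2 libraries also put Trav9-4 at 0.052, Trbv13-2 at 0.0097 and Trbv19 at 0.11. Without 1 library at a time, log2 differences ran from −1.42 (without WT-2) to 1.09 for Trbv17, from −0.93 to 0.64 (without D3TA-1) for Trbv3, from −0.73 to 0.073 (without D3TA-1) for Trbv13-2, from −0.56 to 0.015 (without D3TA-1) for Trbv19, and from −1.12 (without WT-2) to 0.49 (without D3TA-1) for Trbv1. Depth limits the alpha, gamma and delta segments most, with 53 Trav reads in D3TA-1 and 0 gamma V reads in WT-2.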
